A study of Homo sapiens with 24 samples.

Results

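RNA recovered with an antibody to the RNA-binding protein HuR was compared with RNA recovered with an IgG1 isotype control antibody from BEAS-2B, an immortalised line derived from human bronchial epithelium, after 18 h with TNFα and IFNγ. These are 6 of the 24 arrays of the series, 3 HuR immunoprecipitates (HuR IP) and 3 IgG1 immunoprecipitates (IgG1 IP), taken by their labels for agent, time and antibody. Both cytokines were given at 50 ng/ml each, and both groups received them. The replicates of each group are numbered 1, 3 and 4, and each number is named a set below (set 1, set 3, set 4); the design text states 3 biological replicates. The other arrays hold both antibodies on the same cells with the cytokines for 3 h, and without them at 3 h and 18 h. The labels of the cells without cytokines read untreated (PBS), and these are called untreated below. The protocol names the anti-HuR antibody as clone 3A2 from Santa Cruz, whereas the sample labels of the stimulated HuR IP arrays give R&D as the vendor. BEAS-2B is a single line grown in culture, and 0 of 8 epithelial markers and 0 of 8 housekeeping genes listed for a check of the label have a value on this array, so the epithelial label could not be checked here.

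HuR, the product of ELAVL1, binds AU-rich stretches in the 3′ untranslated regions of mRNAs, many of which encode cytokines, chemokines, growth factors and cell-cycle regulators. It is known to slow the decay of such transcripts and to aid their translation, and it moves between nucleus and cytoplasm when cells are stimulated. In an immunoprecipitation of this kind, a transcript bound by HuR should make up a larger part of the RNA recovered with anti-HuR than of the RNA that sticks to a control antibody. Airway epithelial cells answer TNFα and IFNγ with a broad output of chemokines, which draw monocytes, granulocytes and lymphocytes.

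cDNA made from the recovered RNA, labelled with 33P, was hybridised to a membrane (filter) array whose probes cover autoimmune and inflammatory genes. Of 384 probes, 355 have a value on every array, and 29 have none, among them those of ELAVL1, CXCL9 and PTGS2. A level below is log2 intensity minus the median of the same array, and a ratio is the HuR IP level minus the IgG1 IP level, so 1 unit is 2-fold. Levels and ranks follow 1 transcript between arrays; since probes differ, they do not show which transcript is the more abundant. Such bulk values cannot tell fewer cells from less RNA per cell, and the subtraction of the median hides any amount shared by most transcripts.

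The HuR IP arrays of sets 1, 3 and 4 had median intensities of 13094, 8131 and 14049. The IgG1 IP arrays of sets 1, 3 and 4 had medians of 3021, 2303 and 12399. Before normalization the HuR IP median thus lay above that of IgG1 IP by 2.12, 1.82 and 0.18 on the log2 scale. The lowest intensity was 7230, 4936 and 7416 on the HuR IP arrays of sets 1, 3 and 4, and 2076, 1145 and 5857 on the IgG1 IP arrays. How long the membranes were exposed and whether background was subtracted is not stated in the labels.

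The sets did not look alike, which bears on every ratio below. Within set 4 the HuR IP and IgG1 IP levels of the 355 transcripts correlated at Pearson's r = 0.945 across transcripts, which are not independent replicates, and had nearly equal spread, with an SD of 1.13 for HuR IP and 1.11 for IgG1 IP. In set 3 they lay on a narrow curve with r = 0.919, but the SD was 0.751 on the HuR IP array and 1.43 on the IgG1 IP array. There, all 51 transcripts with an IgG1 IP level above 2 had a ratio below 0, with a median of -1.64. In set 1 the correlation was 0.463. The IgG1 IP array of set 1 stood apart from the rest: across transcripts it correlated at 0.177 to 0.215 with the HuR IP and IgG1 IP arrays of sets 3 and 4, which among themselves reached 0.893 to 0.945. With the IgG1 IP arrays of set 1 from the 3 other conditions it correlated at 0.728 to 0.747, and with the HuR IP arrays of set 1 there at 0.509 to 0.561. With the arrays of sets 3 and 4 in those conditions it correlated at 0.146 to 0.235. The HuR IP array of set 1 stood apart as well, though less far. It correlated at 0.509 to 0.621 with the HuR IP and IgG1 IP arrays of sets 3 and 4. For the transcripts that led the comparison, ratios are therefore given by set or without set 1.

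**Figure D1:**
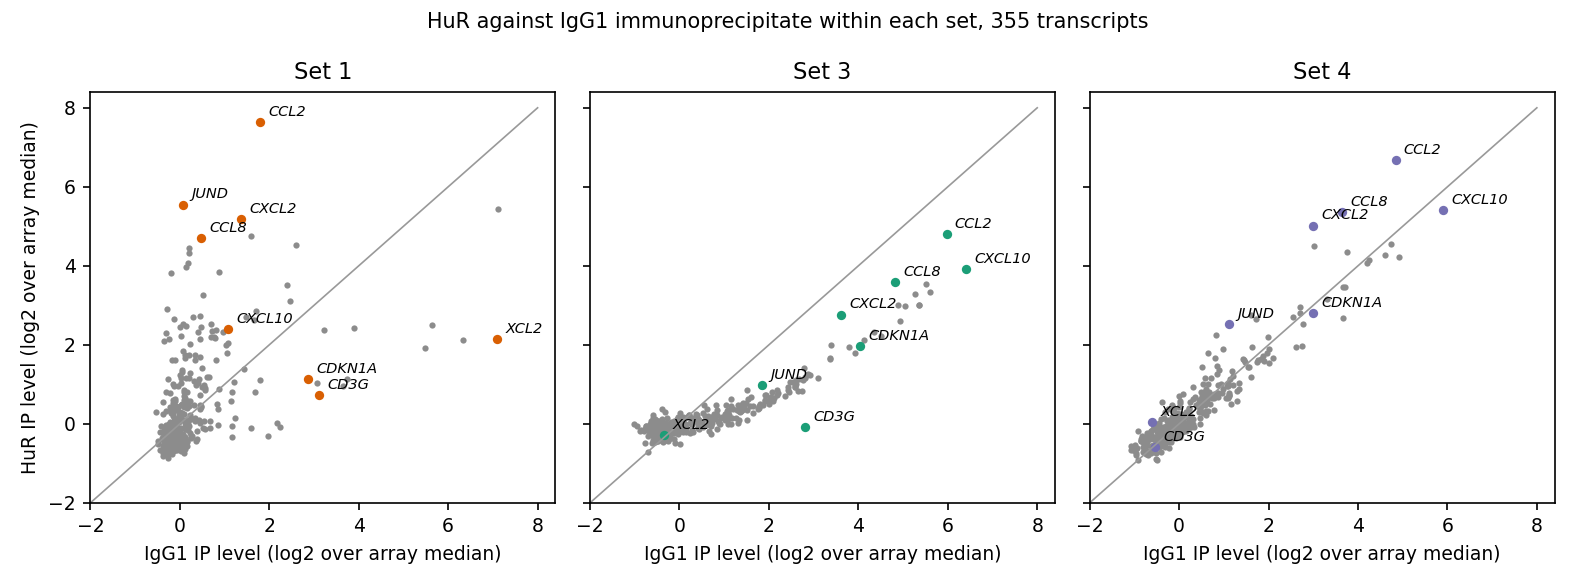
Level of each of 355 transcripts in the HuR IP (vertical axis) against the IgG1 IP (horizontal axis) of the same set, in log2 intensity minus array median, with the line of equal levels. Set 3 forms a flat curve below the line for bright transcripts (SD 0.751 for HuR IP, 1.43 for IgG1 IP), set 4 follows the line, and set 1 scatters (r = 0.463); the highest HuR IP point in each panel is CCL2.

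No transcript passed in the HuR IP over IgG1 IP comparison. With limma on all 24 arrays and Benjamini-Hochberg adjustment over 355 transcripts, 0 were higher and 0 lower at an adjusted p under 0.05 (0% in each direction), and the smallest adjusted p was 0.990. At an unadjusted p under 0.05, 9 were higher and 2 lower. Without centring, the second deposited table, which multiplies each array by 1 factor, gave 25 higher, with the median of all transcripts shifted to 1.61; the intensities without that factor gave 0, with a shift of 1.35. The median width of the 95% confidence interval was 0.665 to either side on the log2 scale. Each SE and interval rests on a spread pooled over the 8 groups of the 24 arrays, not on the spread of these 6 arrays alone. With limma on the 6 arrays alone, 0 transcripts were higher and 1 was lower at an unadjusted p under 0.05. The estimates named below are therefore measured values with their errors, not calls. Of the 355 transcripts, 165 had a mean ratio above 0, or 46.5%. The ratio was above 0 in all 3 sets for 31 (8.73%) and below 0 in all 3 for 39 (11%).

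The largest mean ratios belonged to chemokines and to transcription factors. Of 13 transcripts with a mean ratio above 1, 6 encode chemokines (CCL2, CCL8, CCL13, CXCL1, CXCL2 and CXCL3) and 5 transcription factors (JUND, ATF2, MAX, TGIF1 and RUNX1). The other 2 were TGFA, a ligand of the EGF receptor, and MAPK8, the stress kinase JNK1. All 13 were above 0 in sets 1 and 4, and 12 of 13 were below 0 in set 3. Without set 1 none of the 13 kept a mean ratio above 1.

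CCL2, the main chemoattractant of monocytes, was the brightest of all 355 transcripts on each of the 3 HuR IP arrays. Its intensity was 2615323, 227884 and 1427066 in HuR IP sets 1, 3 and 4, against 10466, 144573 and 354950 in IgG1 IP sets 1, 3 and 4. Before normalization HuR IP was brighter in every set, with log2 ratios of 7.97, 0.66 and 2.01. The median ratio of all transcripts was also above 0 in every set before normalization, at 2.07, 1.72 and 0.23. Relative to the array median the CCL2 level was 7.64, 4.81 and 6.67 in HuR IP and 1.79, 5.97 and 4.84 in IgG1 IP. HuR IP was thus higher in sets 1 and 4 and lower in set 3, and the groups overlapped. The ratio was 5.85, -1.16 and 1.83 in sets 1, 3 and 4, with a mean of 2.17 ± 0.90 (SE, 95% confidence interval 0.29 to 4.05). There were 3 arrays a group, and the SE and interval use the spread pooled over all 24 arrays. Without set 1 the mean ratio was 0.33. By rank of intensity, CCL2 was 1st in all HuR IP arrays and 20th, 2nd and 3rd in the IgG1 IP arrays.

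CCL8, a chemokine of the same monocyte-attracting branch, had levels of 4.69, 3.58 and 5.37 in HuR IP and 0.47, 4.83 and 3.65 in IgG1 IP. Its ratio was 4.22, -1.25 and 1.72, with a mean of 1.57 ± 0.90 (SE). CCL13, which also signals through CCR2, measured 4.32, 0.84 and 1.80 in HuR IP and 0.20, 1.52 and 0.65 in IgG1 IP, with a mean ratio of 1.53 ± 0.61 (SE). Both followed CCL2: high in HuR IP of sets 1 and 4, lower than IgG1 IP in set 3. Without set 1 the mean ratio was 0.24 for each of them.

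CXCL1 and CXCL2, which draw neutrophils through CXCR2, had the same shape. CXCL1 measured 4.46, 2.00 and 4.51 in HuR IP and 0.20, 3.40 and 3.01 in IgG1 IP, a mean ratio of 1.45 ± 0.89 (SE), which was 0.05 without set 1. CXCL2 measured 5.19, 2.76 and 5.01 in HuR IP and 1.36, 3.61 and 3.00 in IgG1 IP, a mean ratio of 1.66 ± 0.84 (SE). Without set 1 the mean ratio was above 0.5 for 2 of 355 transcripts and below -0.5 for 81. CXCL2 was 1 of the 2, at 0.58, from ratios of -0.85 in set 3 and 2.01 in set 4. The other was TRPV6, a calcium channel named after its values were seen, with ratios of 0.63, 0.45 and 0.63 in sets 1, 3 and 4. After quantile normalization, explained below, the TRPV6 ratios were -0.02, 0.24 and 0.49. In untreated cells at 18 h, with the array median subtracted, they were -1.38, 0.01 and 1.53. CXCL3 differed from its relatives, with 4.75, 0.23 and 0.31 in HuR IP and 1.60, 0.22 and 0.14 in IgG1 IP, so that its mean ratio of 1.11 ± 1.36 (SE) came from set 1. CCL2, CCL8 and CCL13, and CXCL1, CXCL2 and CXCL3, are paralogs of similar sequence, and hybridisation of one to the probe of another was not tested.

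**Figure D2:**
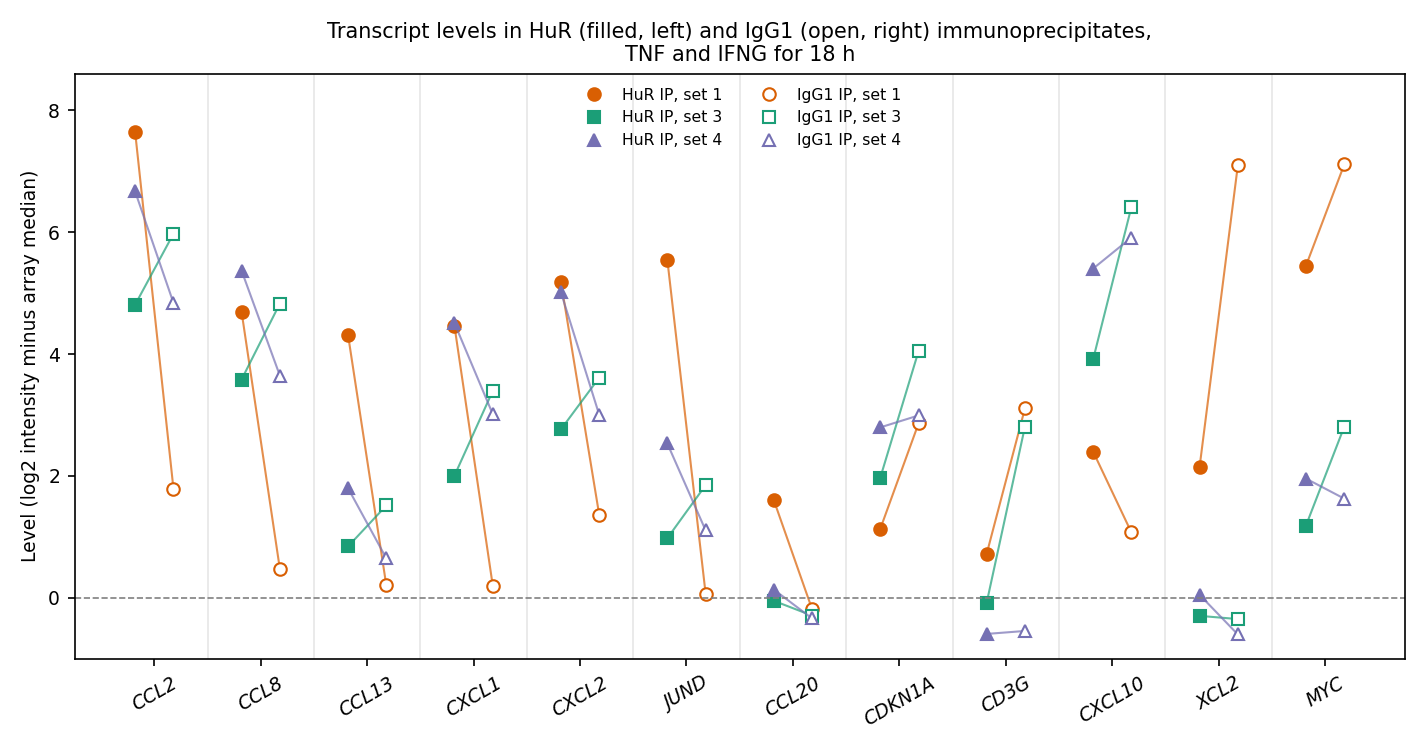
Level (log2 intensity minus array median) of 12 transcripts on each array, HuR IP as filled symbols on the left and IgG1 IP as open symbols on the right of each column, joined within a set. CCL2, CCL8, CCL13, CXCL1, CXCL2 and JUND are higher in HuR IP in sets 1 and 4 and lower in set 3; XCL2 and MYC are highest on the IgG1 IP array of set 1.

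Of the AP-1 and MYC networks, JUND, ATF2 and MAX had the shape of CCL2, high in sets 1 and 4 and low in set 3, and most other members did not have a mean ratio above 0. JUND, an AP-1 subunit, measured 5.55, 0.98 and 2.53 in HuR IP and 0.06, 1.85 and 1.11 in IgG1 IP, with ratios of 5.48, -0.87 and 1.43 and a mean of 2.01 ± 0.95 (SE; 4.03-fold; 95% confidence interval 0.01 to 4.01). ATF2, which pairs with JUN proteins, had ratios of 3.89, -0.51 and 0.94 and a mean of 1.44 ± 0.64 (SE). MAX, the obligate partner of MYC, had ratios of 3.84, -0.86 and 0.90 and a mean of 1.29 ± 0.58 (SE). TGIF1, a repressor of TGF-β responses, averaged 1.52 ± 0.69 (SE) and RUNX1, a factor of blood development, 1.15 ± 0.57 (SE), again with set 1 far above the other sets. Without set 1 the mean ratio was 0.28 for JUND, 0.21 for ATF2, 0.02 for MAX, 0.27 for TGIF1 and 0.13 for RUNX1. FOS, the classical partner of JUN proteins and an unstable AU-rich mRNA, did not follow, with ratios of -0.46, 0.11 and -0.26. Over the 11 measured factors of the AP-1, CREB and MYC families, 5 had a mean ratio above 0 (all transcripts 46.5%), and the median was -0.16, against -0.03 over all transcripts.

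The direction in set 3 turned with the normalization. After quantile normalization, which gives every array the same distribution of values and so removes the unequal spread of set 3, the ratio of CCL2 was 3.27, 0.67 and 1.00 in sets 1, 3 and 4. For CCL8 it was 2.78, 1.51 and 1.62, and its mean was 1.97 ± 0.59 (SE). CCL13 had 2.65, 0.56 and 1.01, CXCL2 had 2.34, 0.65 and 1.57, JUND had 4.66, 0.54 and 0.95, and MAX had 2.61, 0.53 and 0.72. These 6 were the only ones of 355 with a ratio above 0.5 in all 3 sets (1.69%), a limit chosen after the values were seen; 0 transcripts lay below -0.5 in all 3 (0%), and with the array median subtracted 0 lay beyond 0.5 in all 3 sets in either direction. Ratios above 0 in all 3 sets were measured for 35 transcripts after quantile normalization (9.86%), 6 of them among the 20 measured CC chemokines. In the limma fit without a block, the adjusted p after quantile normalization did not pass: 0.492 for CCL8, CCL13 and MAX, and above that for all others, with 11 transcripts at an unadjusted p under 0.05.

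**Figure D3:**
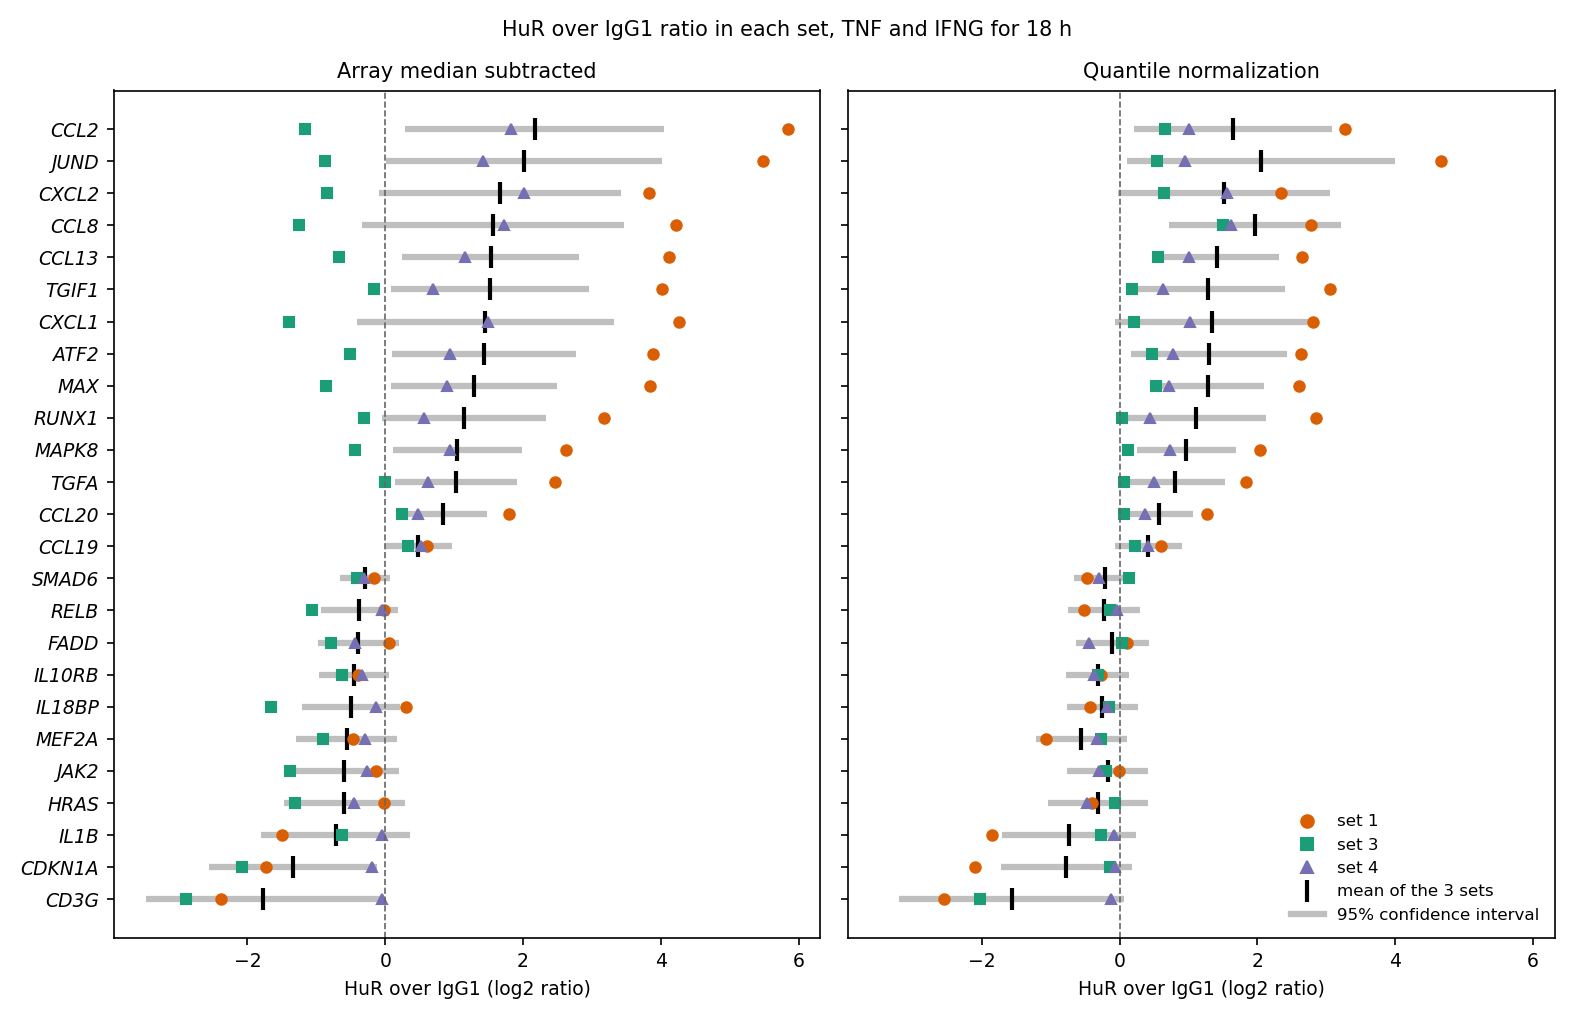
HuR IP over IgG1 IP log2 ratio in each set (symbols), its mean (black bar) and 95% confidence interval (grey) for the 12 higher and 11 of the 12 lower transcripts with the smallest unadjusted p, with CCL8 and CXCL1 added; left with the array median subtracted, right after quantile normalization. On the left the set 3 symbols of CCL2, JUND, CXCL2, CCL8 and CCL13 lie below 0, and on the right they lie at 0.54 to 1.51.

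Ranks of intensity within each array do not change with any rescaling of an array. Quantile normalization sets its values by these ranks, so the ranks are not separate support for the quantile ratios. For 17 of 355 transcripts (4.79%) all 3 HuR IP arrays ranked the transcript higher than any IgG1 IP array did, and for 7 (1.97%) all 3 ranked it lower. Of the 13 transcripts with a mean ratio above 1, 11 were among these 17, all but CXCL1 and CXCL3. The 13 and the 17 were picked on the same 6 arrays, so this overlap is not separate support for the 13 either. CCL8 was 6th, 3rd and 3rd in HuR IP and 67th, 11th and 12th in IgG1 IP. JUND was 2nd, 35th and 22nd in HuR IP and 150th, 59th and 54th in IgG1 IP. CXCL10, by contrast, was 31st, 2nd and 2nd in HuR IP and 36th, 1st and 1st in IgG1 IP. Of the 20 CC chemokines, 5 were among the 17 and 0 among the 7. In the limma test on ranks turned into normal scores, tried after the data were seen, 0 transcripts passed and 8 had an unadjusted p under 0.05.

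On the level scale itself the HuR IP and IgG1 IP arrays did not overlap for 12 transcripts. All 3 HuR IP arrays were above all 3 IgG1 IP arrays for 7 (1.97%): CCL20, CCL19, ACVR2A, TGFBR3, BCL2, TNFRSF11A and CCL4, the last 5 of which were named after their values were seen. CCL20, which draws dendritic cells and lymphocytes through CCR6, measured 1.61, -0.05 and 0.14 in HuR IP and -0.18, -0.29 and -0.34 in IgG1 IP. Its ratio was 1.79, 0.24 and 0.47, with a mean of 0.84 ± 0.31 (SE; 95% confidence interval 0.19 to 1.48; 1.78-fold), and it had the smallest unadjusted p of all transcripts; without set 1 the mean was 0.36. CCL19, a ligand of CCR7, measured 0.43, 0.01 and 0.40 in HuR IP and -0.17, -0.32 and -0.11 in IgG1 IP. Its ratios of 0.60, 0.33 and 0.52 were the most even of the named chemokines, with a mean of 0.48 ± 0.23 (SE), or 0.42 without set 1. ACVR2A and TGFBR3, receptors of the TGF-β superfamily, averaged 0.55 and 0.36, and BCL2, an inhibitor of apoptosis with an AU-rich mRNA, averaged 0.27 ± 0.16 (SE). TNFRSF11A, the receptor RANK, averaged 0.23, and CCL4 only 0.07. All of these but CCL20 in HuR IP set 1 lay within 1 log2 unit of the array median on every array. That median was only 1.46 to 2.12 times the lowest intensity of the same array, so these transcripts were dim. After quantile normalization the set 3 ratio was -0.12 for ACVR2A, -0.10 for TNFRSF11A and -0.09 for CCL4, and above 0 for the others of the 7.

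All 3 HuR IP arrays were below all 3 IgG1 IP arrays for 5 transcripts (1.41%): CDKN1A, IL1B, SMAD6, IL18 and BORCS8-MEF2B, the last 2 named after their values were seen. CDKN1A encodes the cell-cycle inhibitor p21 and is a described HuR ligand. Its level was 1.13, 1.97 and 2.80 in HuR IP and 2.86, 4.05 and 2.99 in IgG1 IP. The ratio was -1.73, -2.08 and -0.20, with a mean of -1.34 ± 0.58 (SE; 95% confidence interval -2.56 to -0.12), which is 2.52-fold higher in IgG1 IP. After quantile normalization its ratios in sets 1, 3 and 4 were -2.10, -0.14 and -0.07. IL1B, a cytokine whose mRNA carries AU-rich elements, measured -0.34, 0.00 and 0.44 in HuR IP and 1.16, 0.63 and 0.48 in IgG1 IP, with a mean ratio of -0.72 ± 0.52 (SE). SMAD6, an inhibitor of BMP signals, averaged -0.29 ± 0.17 (SE). After quantile normalization the SMAD6 ratios in sets 1, 3 and 4 were -0.47, 0.13 and -0.30.

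The lowest mean ratio was that of CD3G, the γ chain of the T-cell receptor complex. It measured 0.72, -0.08 and -0.59 in HuR IP and 3.11, 2.81 and -0.54 in IgG1 IP, so that the IgG1 IP arrays of sets 1 and 3 were high and that of set 4 was not. The ratio was -2.39, -2.89 and -0.05, with a mean of -1.78 ± 0.81 (SE; 3.43-fold higher in IgG1 IP). CD3G gave the highest signal of 14 measured leukocyte markers on those 2 IgG1 IP arrays. After 18 h with the cytokines the levels of all 14 markers were summed on the linear scale as multiples of the array median. The sums were 13.6, 13.9 and 12.5 in HuR IP and 22.8, 16.7 and 12.6 in IgG1 IP. Of the 14, 9 had a mean ratio above 0 (all transcripts 46.5%). No marker of the list exceeded a level of 1 in any HuR IP array.

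A block of transcripts was higher on both arrays of set 1 than in sets 3 and 4, and highest with IgG1. XCL2, the lymphotactin paralog, measured 2.14, -0.29 and 0.05 in HuR IP and 7.10, -0.35 and -0.60 in IgG1 IP. Its receptor XCR1 measured 2.12, 0.12 and 1.26 in HuR IP and 6.34, 0.42 and 0.84 in IgG1 IP. IL17RA, a receptor chain for IL-17, reached 5.64 in IgG1 IP of set 1 and 2.49 in HuR IP, and lay between -0.63 and 0.04 on the arrays of sets 3 and 4. NFRKB, a subunit of the INO80 remodelling complex named after its values were seen, and IL1R2, the decoy receptor of IL-1, had the same shape, with set 1 ratios of -3.57 and -2.70. MYC was also highest there, at 5.45, 1.19 and 1.96 in HuR IP and 7.11, 2.81 and 1.63 in IgG1 IP. The mean ratios of these transcripts ran from -1.42 ± 1.77 (SE) for XCL2 to -0.81 ± 1.01 (SE) for IL1R2, and without set 1 they were 0.35 for XCL2, 0.05 for XCR1, 0.14 for IL17RA and -0.65 for MYC. On the set 1 arrays of untreated cells at 3 h, stimulated cells at 3 h and untreated cells at 18 h, XCL2 was high as well, at 2.74, 2.01 and 1.56 in HuR IP and 3.98, 3.49 and 4.17 in IgG1 IP.

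Genes that IFNγ induces stood lower in HuR IP than in IgG1 IP in sets 3 and 4. Of 17 measured, 4 had a mean ratio above 0 (all transcripts 46.5%), and the median was -0.44. The set medians were 0.54, -1.64 and -0.15. After quantile normalization they were 0.21, 0.01 and -0.17, with 7 of 17 above 0 (all transcripts 158 of 355). CXCL10, the CXCR3 ligand that draws T cells, measured 2.40, 3.91 and 5.40 in HuR IP and 1.07, 6.41 and 5.91 in IgG1 IP. CXCL11, its neighbour and fellow ligand, measured 0.95, 3.01 and 4.07 in HuR IP and -0.03, 5.36 and 4.21 in IgG1 IP. Both transcripts were thus brighter in sets 3 and 4 than in set 1 with either antibody. IRF1, an IFNγ-induced transcription factor, had ratios of 0.54, -1.71 and -0.80, and ICAM1, a ligand of leukocyte integrins, 1.62, -1.88 and -0.71. CCL5, a chemokine of T cells and eosinophils, had 1.35, -1.97 and -0.18, with a mean of -0.27 ± 0.69 (SE), unlike CCL2 and CCL8.

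Components of the NF-κB pathway were mostly below 0 on average, and by the widest margin in set 3. Of 30 measured, 4 had a mean ratio above 0 (all transcripts 46.5%) and 8 were below 0 in all 3 sets (all transcripts 11%). The median was -0.26. After quantile normalization it was -0.07, with 9 of 30 above 0 (all transcripts 158 of 355). Above 0 were 17 of 30 in set 1, 2 in set 3 and 11 in set 4 (all transcripts 166, 155 and 193 of 355). The set medians were 0.05, -0.82 and -0.10. NFKBIA, which encodes the inhibitor IκBα and is itself induced by NF-κB, measured 1.41, 3.28 and 4.28 in HuR IP and 0.50, 5.26 and 4.60 in IgG1 IP. TNFAIP3, the deubiquitinase A20, had ratios of 0.61, -1.34 and -0.45. RELB and NFKB2, partners in the alternative pathway, averaged -0.38 ± 0.27 (SE) and -0.39 ± 0.33 (SE), and NFKB1, the p105 precursor, -0.32 ± 0.29 (SE). The kinase JAK2 and the GTPase HRAS, outside this list, had ratios below 0 in every set, and each averaged -0.59.

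Most measured CC chemokines lay slightly above 0. Of 20, 16 had a mean ratio above 0 (all transcripts 46.5%). In all 3 sets, 6 were above 0 (all transcripts 8.73%) and 0 below 0 (all transcripts 11%). The median was 0.19, with set medians of 0.29, 0.20 and 0.10. After quantile normalization 15 of 20 were above 0 (all transcripts 158 of 355), with set medians of 0.39, 0.11 and 0.03. In set 3 the medians of leukocyte markers, interleukins and chemokine receptors were also above 0, at 0.40, 0.26 and 0.21. Those of the IFNγ-inducible genes and the NF-κB components were below 0 there. Beyond CCL2, CCL8, CCL13, CCL19 and CCL20 the values were small: CCL7, another CCR2 ligand, averaged 0.24 ± 0.27 (SE), and CCL11, the eosinophil chemoattractant eotaxin, 0.23 ± 0.25 (SE), both with levels near the array median. Among the 13 other chemokines, 9 were above 0 (all transcripts 46.5%) and the median ratio was 0.21. CXCL8, which draws neutrophils and has an AU-rich mRNA, measured 2.22, 0.35 and 1.00 in HuR IP and 0.03, 1.41 and 0.65 in IgG1 IP. CX3CL1, fractalkine, was near the median in both, with a mean ratio of -0.13 ± 0.20 (SE). The series title names chemokine transcripts as HuR targets, so the direction of the chemokine lists has no independent support from these samples.

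Described HuR ligands and AU-rich mRNAs had values on both sides of 0. Of 35 measured, 15 had a mean ratio above 0 (all transcripts 46.5%), and the median was -0.03, equal to that of all transcripts. In all 3 sets, 3 were above 0 (all transcripts 8.73%) and 3 below 0 (all transcripts 11%). After quantile normalization 12 of 35 were above 0 (all transcripts 158 of 355) and the median was -0.12. The highest members of the list were CCL2 and CXCL2, and the lowest CDKN1A and MYC. TNF had ratios of 0.47, 0.02 and 0.23, IL6 of 1.39, -1.39 and 0.15, IL1A of -0.49, -0.51 and -0.05, and VCAM1, an adhesion molecule for leukocytes, of -0.59, -0.84 and 0.24. The NF-κB-inducible genes had 17 of 35 members with a mean ratio above 0 (all transcripts 46.5%), median -0.03. The interleukins had 9 of 20 above 0 (all transcripts 46.5%) and a median of -0.03. Of them, 5 were below 0 in all 3 sets (all transcripts 11%). Interleukin receptors had 4 of 20 above 0 (all transcripts 46.5%) and a median of -0.12. IL10RB, a shared chain of the IL-10 receptor family, had ratios of -0.39, -0.62 and -0.34. The remaining lists, of MAP kinases, JAK-STAT genes, adhesion molecules, Toll-like receptors, receptors for chemokines and TNF, and TNF family ligands, had medians between -0.17 and 0.07.

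**Figure D4:**
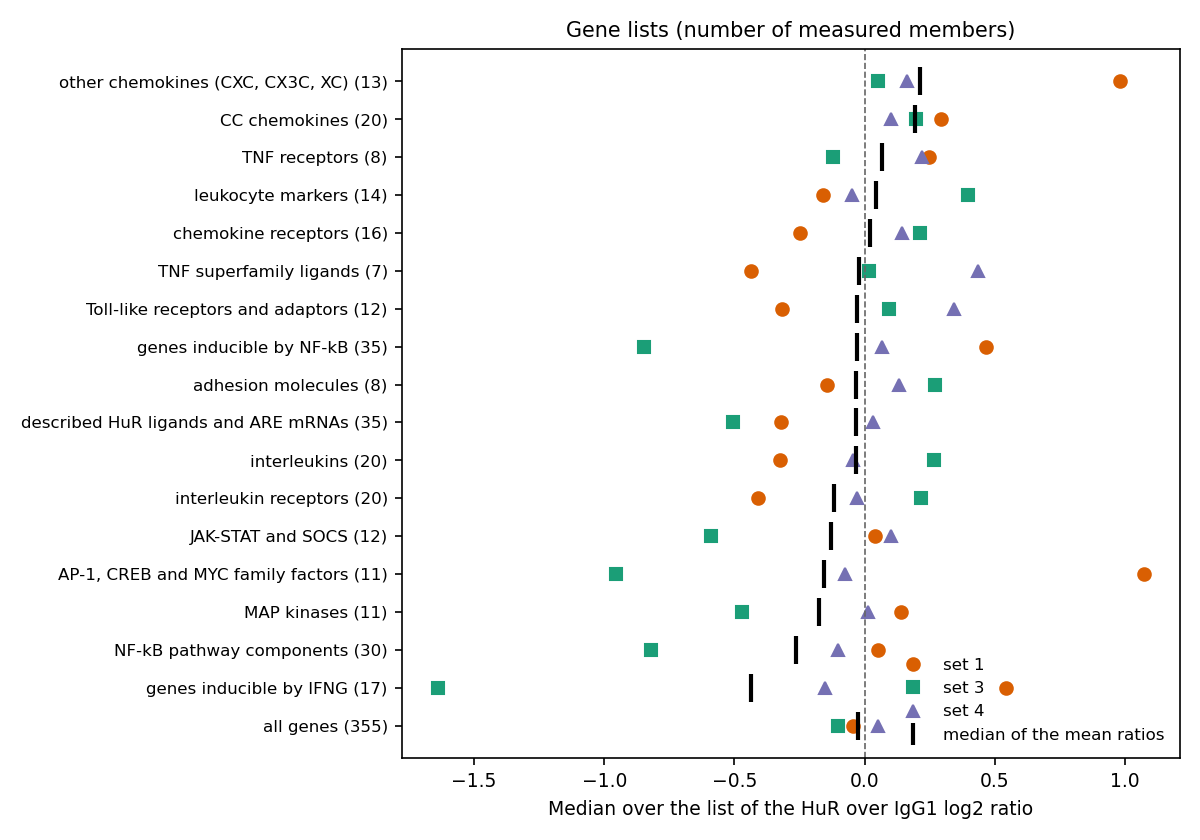
Median HuR IP over IgG1 IP log2 ratio of each gene list in sets 1, 3 and 4 (symbols) and the median of the members' mean ratios (black bar), with the number of measured members. The CC chemokines lie above 0 in all 3 sets (0.29, 0.20 and 0.10), while the IFNγ-inducible genes run from -1.64 in set 3 to 0.54 in set 1; all 355 transcripts are at the bottom.

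The ratio after 18 h with the cytokines was compared with that in untreated cells at 18 h and with that after 3 h of the cytokines, which used other arrays. In neither of those conditions did a transcript pass, with 0 at an unadjusted p under 0.05 in each. The difference between 18 h stimulated and 18 h untreated ratios passed for 0 of 355 transcripts (0%), and so did the difference between 18 h and 3 h of stimulation (0%); in both, 0 had an unadjusted p under 0.05 with limma, and the smallest adjusted p values were 0.994 and 0.999. CCL2 had a mean ratio of 2.17 in stimulated cells and 1.10 in untreated cells at 18 h, a difference of 1.08 with a 95% confidence interval of -1.58 to 3.73. After 3 h of stimulation it was 1.21. Its set ratios were 1.26, 0.00 and 2.03 in untreated cells at 18 h, so that sets 1 and 4 were above set 3 there too.

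JUND had a mean ratio of 2.01 in stimulated and 1.69 in untreated cells at 18 h, and its set 1 ratio was above 2 in all 4 conditions. CCL20 had 0.84 in stimulated and -0.01 in untreated cells at 18 h, a difference of 0.85 with a 95% confidence interval of -0.07 to 1.76. CCL13 had 1.53 in stimulated and -0.04 in untreated cells, a difference of 1.57 with an interval of -0.25 to 3.39. CDKN1A had -1.34 in stimulated and -0.07 in untreated cells, a difference of -1.26 with an interval of -2.99 to 0.46. The stimulated ratio at 18 h was above the untreated one for 20 of 20 measured CC chemokines, where 182 of 355 transcripts were (51.3%); the median difference was 0.38, and 0 of the 20 passed on their own. That count rested in part on 1 array of the untreated cells, HuR IP of set 4, which had 97 transcripts above 2 times its median, against 31 to 49 on the other untreated 18 h arrays. Without it, 13 of 20 CC chemokines and 177 of 355 transcripts had a difference above 0, and the median difference of the CC chemokines was 0.07. After quantile normalization 15 of 20 did (all transcripts 179 of 355), with a median of 0.17, and with array weights 14 of 20 (all transcripts 179 of 355).

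**Figure D5:**
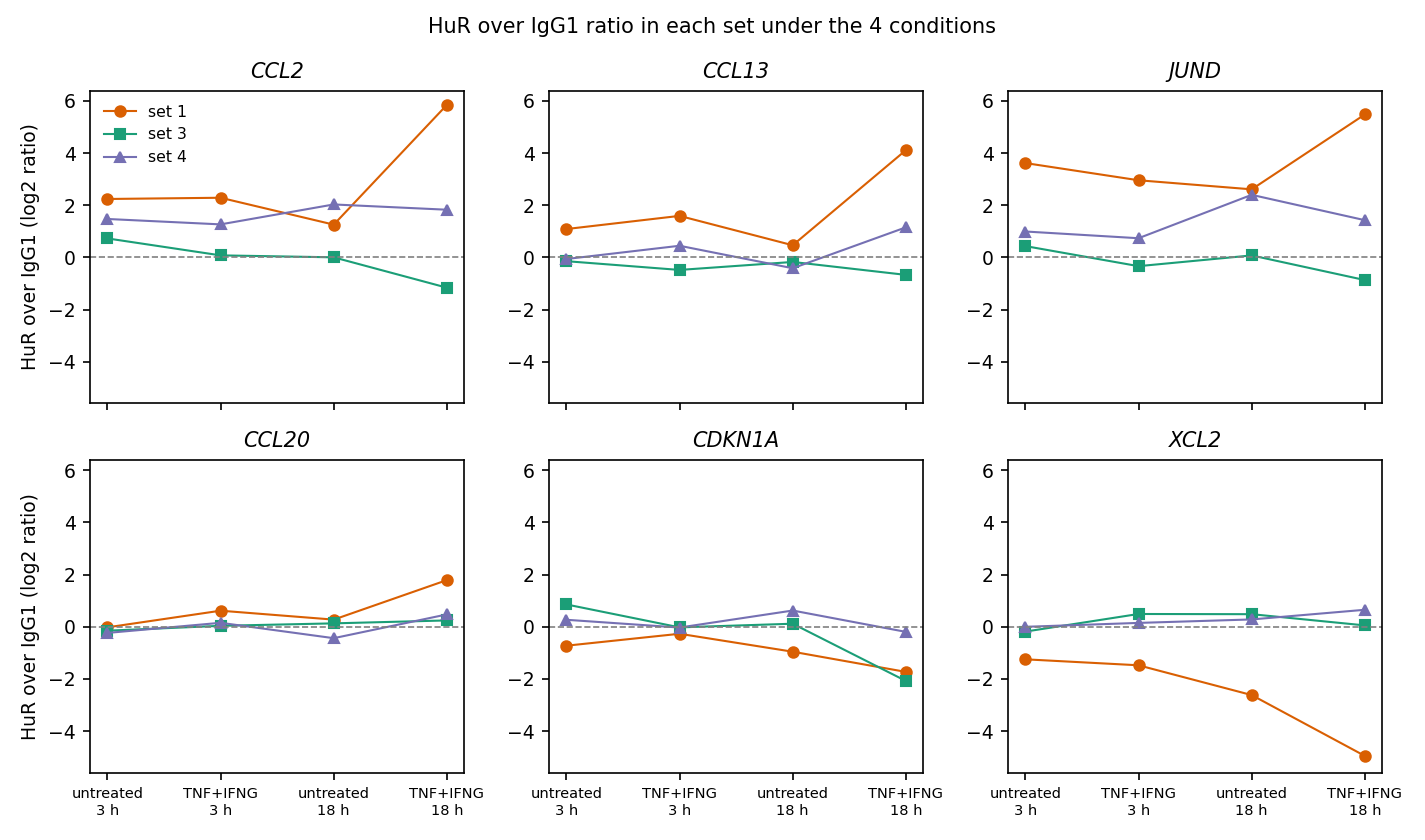
HuR IP over IgG1 IP log2 ratio of 6 transcripts in sets 1, 3 and 4 under the 4 conditions of agent and time. In set 1 the ratio at 18 h of stimulation is the highest of the 4 for CCL2 (5.85), CCL13, JUND (5.48) and CCL20 and the lowest for XCL2 (-4.95), while CCL2 in set 3 is lowest there (-1.16).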

How the data were processed

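Per the labels' protocols, RNA from immunoprecipitates with anti-HuR or IgG1 was labelled with 33P as cDNA and hybridised to membrane arrays. The authors deposited 1 intensity per probe and array, called non-normalized, and a second table with the same intensities times 1 factor per array (0.542 to 3.64); image analysis and background treatment are not stated in the labels. No pseudocount was added. Log2 intensities of 355 probes with values on all 24 arrays were centred on the array median. limma 3.58.1 in R 4.3.3 (lmFit, eBayes) was fitted to 24 arrays with 8 group coefficients and no block; p-values were adjusted by Benjamini-Hochberg over 355 probes, with a threshold of 0.05. The script was tested on simulated data. The number of arrays limits the precision. Symbols come from probe accessions (342 matched in the gene table of GRCh38.p14, used for names only; 13 keep the deposited symbol).

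Transcripts and lists were chosen with earlier results of these data known. Named transcripts are the 12 higher and 12 lower with the smallest p, a set of chemokines, cytokines and factors, the 8 with the widest range between sets, and the 2 highest and 2 lowest of each list; 12 list ends within 0.25 of 0 are given only through their list, and others are said to be named after their values were seen. A few genes are counted but not reported here by name. Alternatives were no, quantile, 75th percentile or z-score normalization, normexp background (offset 50), the second table, a filter on dim probes, the 6 arrays alone, a replicate block, array weights and left-out arrays; normal scores of ranks, and left-out untreated 18 h arrays, were added after seeing the data.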

Additional observations from a re-analysis of the deposited data

How the results depend on the processing

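There were 3 arrays a group, both arrays of set 1 stood apart, that of IgG1 IP furthest, and the spread in set 3 was unequal. Ratios of single transcripts were therefore uncertain, and dim transcripts lay close to the lowest intensity of an array. The count of passing transcripts was 0 in all 5 comparisons and stayed 0 under every alternative run but 2, and with any of the 6 arrays or any set left out. Without centring, the second deposited table gave 25 higher, with the median of all genes shifted by 1.61, and 232 transcripts at an unadjusted p under 0.05; the untouched intensities gave 0, with a shift of 1.35. The replicate block with quantile normalization gave 1 higher, CCL8, at an adjusted p of 0.0372. The causes were not tested. The replicate block with array medians left the count at 0, with 32 transcripts at an unadjusted p under 0.05, against 11 without the block. As to pairing, deviations of same-numbered HuR IP and IgG1 IP arrays from their group means correlated at 0.45 (set 1), 0.03 (set 3) and 0.59 (set 4), and HuR IP of set 3 correlated best with IgG1 IP of set 4 (0.17), so these arrays were not treated as paired; in the 3 other conditions same-numbered arrays correlated at 0.46 to 0.81, and 11 of 12 pairs over all conditions exceeded 0.1.

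The ratios above 0 in all 3 sets numbered 31 to 35 and those below 0 in all 3 sets 30 to 40 under every normalization, the uncentred tables being taken relative to each set's median of all genes. The CC chemokines with a larger ratio in stimulated than in untreated cells at 18 h, 20 of 20, numbered 14 to 20 under other scalings, the block or array weights and 13 to 20 with 1 array or set left out, the 13 being without the untreated HuR IP array of set 4; these alternatives were chosen after seeing the data. In set 3 quantile normalization turned the ratios of CCL2 0.67, JUND 0.54, CXCL2 0.65, CCL8 1.51, CCL13 0.56 and CXCL1 0.21. The 75th percentile turned those of JUND 0.017, CXCL2 0.038 and CCL13 0.22 in set 3, and that of CCL19 -0.0061 in set 1. It left CCL2 -0.28, CCL8 -0.36 and CXCL1 -0.50 below 0 in set 3. That scaling moved the median ratio of all genes to 0.79 in set 3 and -0.65 in set 1. Relative to these medians JUND, CXCL2 and CCL13 stayed lower in set 3 and CCL19 higher in set 1. Mean ratios turned under few other settings: with array weights IL6 -0.17, XCL2 0.15 and CALM2 -0.60; with normexp background CCL5 0.057, CXCL11 0.087 and ICAM1 0.041; with quantile normalization, with or without the block, IL15 0.013 and TNFRSF1A 0.081; with z scores CCL5 0.47, CXCL10 0.30, CXCL11 0.25, ICAM1 0.30, NFKBIA 0.29 and RELA 0.068; and with rank scores CCL5 0.0021, CXCL11 0.15, TNF -0.068, NFKB2 0.0031, IL15 0.14, LTBR 0.037, TNFRSF1A 0.062 and IRAK1 0.064. With an array or set left out, the mean ratio took either sign for 33 transcripts: CALM2 -1.12 to 1.39, CCL5 -1.47 to 0.80, CCR7 -1.17 to 0.29, CX3CL1 -0.27 to 0.027, CXCL10 -2.26 to 0.41, CXCL11 -2.11 to 0.59, CXCL3 -0.39 to 1.88, CXCL8 -0.35 to 1.27, ICAM1 -1.71 to 0.46, ICAM2 -1.02 to 0.099, IL10 -0.14 to 1.20, IL15 -0.70 to 0.078, IL17RA -2.11 to 1.02, IL18BP -1.01 to 0.081, IL1R2 -1.51 to 0.53, IL6 -0.62 to 0.77, JAK2 -0.93 to 0.0095, LTBR -1.24 to 0.16, MAP3K7 -0.63 to 0.22, MYC -2.28 to 0.64, MYD88 -0.92 to 0.12, NFKBIA -1.94 to 0.44, NFRKB -2.30 to 0.68, RELA -1.46 to 0.47, SOCS1 -1.79 to 0.085, SOCS3 -0.40 to 1.68, SOCS4 -0.070 to 1.00, TNFAIP3 -0.90 to 0.079, TNFRSF1A -0.81 to 0.19, TNFRSF1B -0.12 to 1.16, TNFSF11 -0.019 to 1.11, XCL2 -2.74 to 1.11 and XCR1 -2.43 to 0.53. CCL2 ran from 0.33 to 3.84 over the same omissions.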
